A study of Mus musculus with 12 samples.

Results

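The 10 genes described here are markers and engines of the cell cycle that are measured when a liver starts to regenerate: *Ccnd1*, *Ccne1*, *Mcm2*, *Mcm5*, *Rrm2*, *Tk1*, *Top2a*, *Cdk1*, *Ccnb1* and *Mki67*. They were taken by symbol, and all 10 were found among the 45777 genes of the expression table. Liver RNA was sequenced from 12 male C57BL/6 mice in 4 groups of 3, namely wild-type (WT) mice given vehicle, WT mice given acetaminophen (APAP), mice labelled *Gna12* knockout (KO) given vehicle and mice labelled KO given APAP. APAP is a painkiller that injures hepatocytes around the central vein when overdosed. It was injected into the peritoneum once at 300 mg/kg after an overnight fast, and the livers were taken after 6 h, an early time in the injury. The labels give an age of 10 to 12 weeks for every animal. *Gna12* encodes the G protein subunit Gα12, the WT mice were age-matched littermates of the KO mice, and the deleted stretch of the gene is not given in the sources used here. Each value is from whole liver, in which fewer cells of a type and less RNA per cell cannot be told apart.

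The total count ranged from 49737950 to 69566079 reads per liver. *Gna12* itself was counted 1659 to 3550 times in the WT vehicle livers, 1193 to 4373 times after APAP in WT mice, and, in mice labelled KO, 2472 to 4003 times with vehicle and 2489 to 3248 times after APAP. Since the KO livers did not have fewer *Gna12* reads, KO below means the label. Hepatocyte markers led in every liver, with *Alb* at 2155803 counts or more. WT APAP replicate 1 stood apart by its erythroid markers, which summed to 13490 CPM against 221 to 616 CPM in the other livers, where CPM are counts scaled by library size with the TMM method. In WT mice the hemoglobin genes among these markers averaged 42.0 to 97.9 CPM with vehicle and 885 to 2086 CPM with APAP. The markers *Alas2* and *Klf1* averaged 93.5 and 4.18 CPM with vehicle and 109 and 1.87 CPM with APAP.

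Resting hepatocytes sit outside the cell cycle. After tissue loss they re-enter it in a fixed order, in which growth factors and immediate early genes come first, cyclin D1 carries the cell through G1, cyclin E and the MCM helicase prepare the origins of replication, nucleotide enzymes feed S phase, and cyclin B1 with CDK1 opens mitosis. After partial hepatectomy in mice, DNA synthesis peaks more than a day after the operation. The promoters of the S phase genes are classically read by E2F factors. Those of the G2 and mitosis genes often carry CCAAT boxes and the cell cycle genes homology region (CHR). The CHR is read by the DREAM complex and by B-MYB with FOXM1.

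The sequences just upstream of the first RefSeq base of 5 of these genes are shown because the genes differ in the phase they serve and, as described later, partly in how they varied between livers. They are the 150 bases before that base, read from RefSeq promoters of build GRCm38.p6, 5′ to 3′ on the minus strand for *Mki67* (chr7:135716451-135716600), *Top2a* (chr11:99024200-99024349), *Cdk1* (chr10:69352913-69353062) and *Ccnb1* (chr13:100786487-100786636) and on the plus strand for *Mcm5* (chr8:75109318-75109467). Capitals mark every match, on either strand, to the CCAAT box, to the CHR letters TTTGAA, or to an E2F site spelled TTTGGCGC, TTTCCCGC, TTTCGCGC or TTTGCCGC.
Mki67: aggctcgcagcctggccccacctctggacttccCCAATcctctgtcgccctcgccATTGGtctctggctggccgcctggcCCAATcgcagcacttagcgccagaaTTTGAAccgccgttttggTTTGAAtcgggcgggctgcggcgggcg
Top2a: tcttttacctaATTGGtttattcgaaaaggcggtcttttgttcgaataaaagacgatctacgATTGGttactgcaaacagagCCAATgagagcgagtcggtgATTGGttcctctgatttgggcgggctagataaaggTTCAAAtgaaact
Cdk1: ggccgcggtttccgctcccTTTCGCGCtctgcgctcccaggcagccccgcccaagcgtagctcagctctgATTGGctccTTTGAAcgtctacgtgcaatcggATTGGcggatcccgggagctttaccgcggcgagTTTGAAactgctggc
Ccnb1: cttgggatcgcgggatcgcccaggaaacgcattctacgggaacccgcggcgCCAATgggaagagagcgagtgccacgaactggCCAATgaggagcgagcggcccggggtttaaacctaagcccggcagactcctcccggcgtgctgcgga
Mcm5: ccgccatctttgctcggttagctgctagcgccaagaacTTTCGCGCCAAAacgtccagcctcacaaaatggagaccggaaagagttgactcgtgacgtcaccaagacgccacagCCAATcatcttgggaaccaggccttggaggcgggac

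RefSeq promoters were matched for 9 of the 10 genes, in windows of 250 bases before to 50 after the start, and *Ccnd1* was the gene without one. In these windows the E2F letters stood in 2 of 9 genes (*Cdk1* and *Mcm5*), against 2.3% of all 32851 promoters. In *Mcm5* 2 E2F matches overlap on opposite strands and form the single capital stretch shown. The CHR letters stood in 4 of 9 (*Mki67*, *Top2a*, *Cdk1* and *Mcm2*), against 17.9% of all promoters, and a CCAAT box in 7 of 9, against 37.4%. A match of letters is a description of the sequence and not evidence of binding.

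All 10 genes were lowly to moderately expressed in these livers. On the TPM scale of the authors, which corrects for transcript length, the median level over the 12 livers was highest for *Tk1* at 22.3 TPM, followed by *Ccnd1* at 7.12 TPM, *Rrm2* at 2.55 TPM and *Ccne1* at 1.35 TPM. The helicase genes lay below 1 TPM, with *Mcm2* at 0.635 TPM and *Mcm5* at 0.468 TPM. The G2 and mitosis genes were the lowest, with *Cdk1* at 0.223 TPM, *Ccnb1* at 0.113 TPM, *Top2a* at 0.0927 TPM and *Mki67* at 0.0889 TPM. Neighbours in this order overlapped in their ranges over livers. *Mki67*, for example, spanned 0.0398 to 0.447 TPM and *Top2a* 0.0211 to 0.303 TPM, and the ranges of *Tk1* (5.17 to 69.1 TPM) and *Ccnd1* (1.72 to 26.9 TPM) crossed as well. The low genes rest on few reads, since *Ccnb1* had at most 40 counts in any liver, *Top2a* at most 52 and *Cdk1* at most 73.

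**Figure D1:**
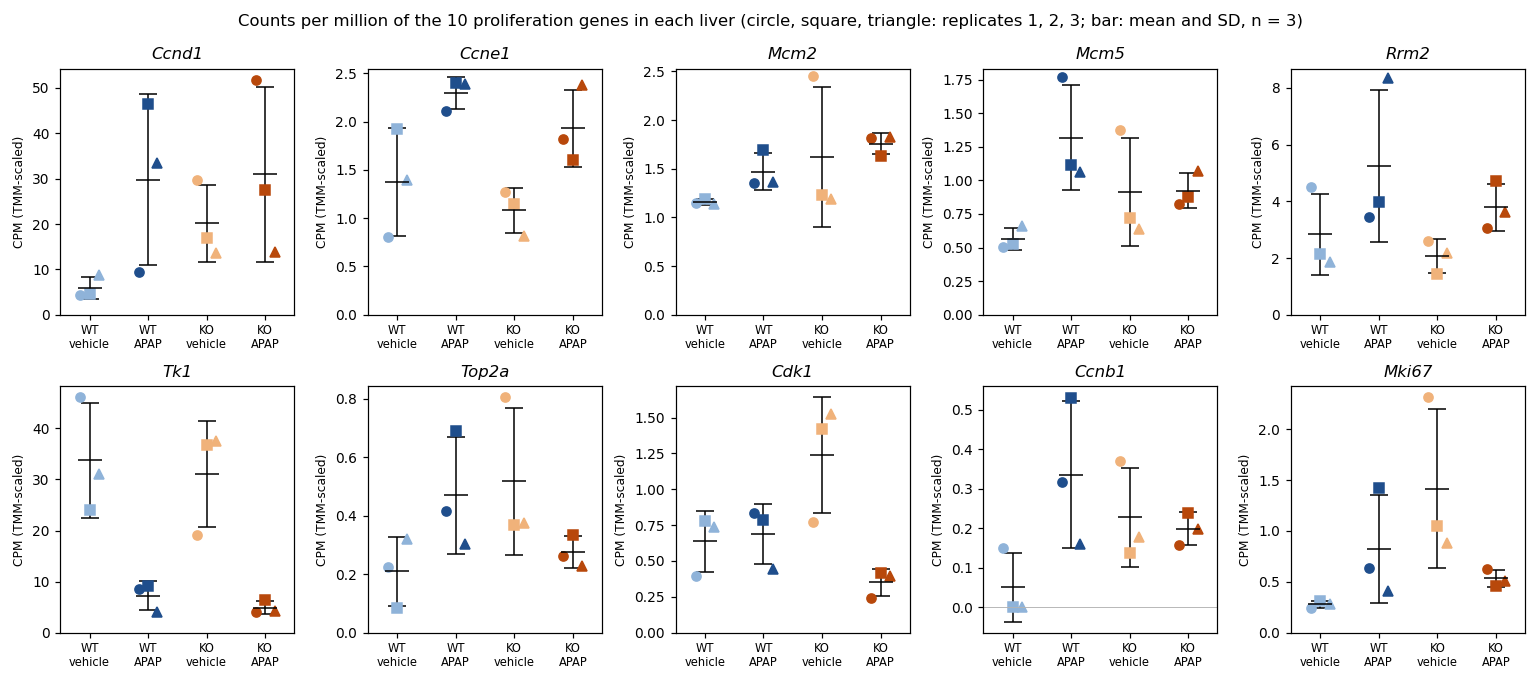
CPM after TMM scaling (vertical axes, linear) of the 10 genes in the 12 livers, grouped by label and treatment on the horizontal axis. Each symbol is 1 liver (circle, square and triangle for replicates 1, 2 and 3) and bars give the mean and SD of 3 livers. *Tk1* lies at 19.1 to 46.1 CPM in the vehicle livers and at 3.97 to 9.22 CPM in the APAP livers, while *Mki67* is lowest in WT vehicle livers (0.244 to 0.314 CPM) and highest in KO vehicle replicate 1 (2.32 CPM).

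To examine how these genes responded to the injury, APAP livers were compared with vehicle livers in 3 ways, within WT mice, within mice labelled KO, and over both labels with the label as a term. A gene was called when its adjusted p-value from edgeR's quasi-likelihood test was under 0.05. Changes are given as log2FC, the log2 fold change of APAP over vehicle unless stated otherwise, with its standard error (SE). Over both labels, 4 of the 10 genes were called. *Ccnd1*, *Ccne1* and *Rrm2* were higher after APAP and *Tk1* was lower, while the other 6 did not pass. Among all 16112 genes tested, 25.7% were called (14% higher and 11.7% lower), so the shares among the 10 genes stand against a broad background of change. The split of all genes was 2262 higher and 1880 lower by edgeR, and 1938 higher and 2455 lower by limma on quantile-normalized log2(TPM + 1).

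The G1 cyclin *Ccnd1* encodes cyclin D1, which activates CDK4 and CDK6 and is the classic sign that a hepatocyte has left quiescence. Its counts were 232, 215 and 439 in WT vehicle livers and 471, 3501 and 2109 in WT APAP livers. In livers labelled KO they were 1772, 873 and 619 with vehicle and 2966, 1714 and 966 with APAP. In counts and in CPM the WT groups did not overlap, whereas the KO groups did, and the KO vehicle livers were each above the WT vehicle livers. On the TPM scale the WT groups overlapped, with WT APAP replicate 1 at 2.45 TPM and WT vehicle replicate 3 at 3.52 TPM. Over both labels *Ccnd1* had a log2FC of 1.47 (SE 0.48, adjusted p = 0.0395, edgeR). The call was kept in 4 of the 12 fits that left out 1 liver and lost without WT vehicle replicates 1, 2 or 3, WT APAP replicates 2 or 3, KO vehicle replicates 2 or 3, or KO APAP replicate 1, with adjusted p-values of 0.0621 to 0.0983 in the fits that lost it and log2FC of 1.18 to 1.76 over all 12 fits. It was also lost by limma on log2(TPM + 1) and on log2(TPM + 0.1) (adjusted p = 0.078 and 0.0684), and it was kept in 5 of the 8 other settings. In WT mice vehicle livers averaged 5.87 ± 2.50 CPM (SD, n = 3) and APAP livers 29.8 ± 18.9 CPM, for a log2FC of 2.35 (SE 0.57, adjusted p = 0.0856). It passed by DESeq2's Wald test (adjusted p = 0.000438) and without WT APAP replicate 1 (2.77, adjusted p = 0.0263), the liver with the high erythroid markers, and that liver held the lowest *Ccnd1* level of the WT APAP group. For the KO label it was 0.63 (SE 0.46, adjusted p = 0.356). The last 818 bases of *Ccnd1* overlap *LTO1* on the other strand, whose reads may mix with those of *Ccnd1* if the counting ignored strand. *LTO1*, named after its values were seen, did not pass over both labels (log2FC 0.23, adjusted p = 0.506). Over the 12 livers the log2 levels of *Ccnd1* and *LTO1* had a Pearson correlation of 0.72, and of 0.81 after each group's mean was removed. The part of shared reads in the level of *Ccnd1* was not tested.

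Cyclin E1, the product of *Ccne1*, pairs with CDK2 at the entry into S phase. *Ccne1* was counted 43, 92 and 70 times in WT vehicle livers and 106, 181 and 150 times in WT APAP livers. In KO livers the counts were 76, 59 and 37 with vehicle and 104, 100 and 167 with APAP. In counts and in CPM every APAP liver was above every vehicle liver of its own label. On the TPM scale the WT groups overlapped, with WT APAP replicate 1 at 1.07 TPM and WT vehicle replicate 2 at 1.43 TPM. The change was of similar size under both labels, with log2FC of 0.75 (SE 0.36) in WT mice and 0.84 (SE 0.28) under the KO label, neither of which passed alone (adjusted p = 0.332 and 0.0638, edgeR). Over both labels it was 0.79 (SE 0.22, adjusted p = 0.0185), and it passed in each of the 12 fits that left out 1 liver (largest adjusted p = 0.0478) and under each of the 8 other settings.

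*Rrm2* encodes the small subunit of ribonucleotide reductase, which makes the deoxynucleotides for S phase. It was counted 239, 103 and 93 times in WT vehicle livers and 173, 299 and 524 times in WT APAP livers, and these groups overlapped. In KO livers the counts were 154, 73 and 99 with vehicle and 176, 294 and 254 with APAP, without overlap. The log2FC were 0.90 (SE 0.46, adjusted p = 0.363) in WT mice and 0.88 (SE 0.28, adjusted p = 0.0522) under the KO label. Over both labels *Rrm2* passed at 0.88 (SE 0.28, adjusted p = 0.0343, edgeR). The call lay near the threshold and was kept in 5 of the 12 fits that left out 1 liver. It was lost without WT vehicle replicates 2 or 3, WT APAP replicate 3 (log2FC 0.66), KO vehicle replicates 2 or 3, or KO APAP replicates 2 or 3. The adjusted p-values in those fits were 0.0551 to 0.1, with log2FC of 0.66 to 1.11 over all 12 fits.

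*Tk1* encodes the cytosolic thymidine kinase, the salvage enzyme of S phase, and moved opposite to *Rrm2*. The counts were 2454, 1147 and 1560 in WT vehicle livers and 434, 694 and 250 in WT APAP livers. They were 1140, 1890 and 1694 in vehicle livers and 235, 399 and 301 in APAP livers labelled KO. The lowest vehicle liver was above the highest APAP liver under both labels. *Tk1* fell from 33.8 ± 11.3 to 7.27 ± 2.87 CPM in WT mice (SD, n = 3, log2FC -2.21, SE 0.38, adjusted p = 0.0337, edgeR) and from 31.1 ± 10.4 to 4.92 ± 1.26 CPM under the KO label (-2.65, SE 0.29, adjusted p = 0.00116). Over both labels the log2FC was -2.43 (SE 0.26, adjusted p = 5.2e-05). The WT call was lost without WT vehicle replicates 1 or 3 or WT APAP replicates 1 or 3 (adjusted p-values of 0.0706 to 0.127), whereas the KO call and the call over both labels were kept in every fit that left out 1 liver.

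A property of the locus bears on the reading of *Tk1*. On chromosome 11 of GRCm38.p6 *Tk1* (117815519 to 117826087, minus strand) begins inside *Afmid* (117825503 to 117839908, plus strand), and the genes share 585 bases at their starts. *Afmid* encodes arylformamidase, a liver enzyme of tryptophan breakdown, and it was named after its values were seen. *Afmid* was far more abundant, so that the *Tk1* count was 6.64% to 19.4% of the *Afmid* count in the same liver, and the kit kept the strand of the RNA but the strand setting of the counting is not given in the sources used here. *Afmid* also fell, from 220 ± 22.4 to 65.2 ± 13.6 CPM in WT mice (SD, n = 3, log2FC -1.75, SE 0.22, adjusted p = 0.0114) and from 178 ± 46.6 to 66.1 ± 11.2 CPM under the KO label (-1.42, SE 0.22, adjusted p = 0.00409). Over the 12 livers the log2 levels of *Tk1* and *Afmid* had a Pearson correlation of 0.97, and of 0.86 after each group's mean was removed, with the treatment and the library shared by both. Within the deposited counts, reads from the shared bases cannot be assigned to 1 of them, and the level of *Tk1* is therefore uncertain. *Birc5*, which encodes the mitotic protein survivin and starts 9329 bases beyond the end of *Afmid*, was counted 89 to 172 times in WT vehicle livers, 26 to 80 times in WT APAP livers, 101 to 118 times in KO vehicle livers and 20 to 32 times in KO APAP livers. *Birc5* fell as well over both labels (log2FC -2.07, SE 0.28, adjusted p = 0.000236) and correlated with *Tk1* at 0.97 over the 12 livers.

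**Figure D2:**
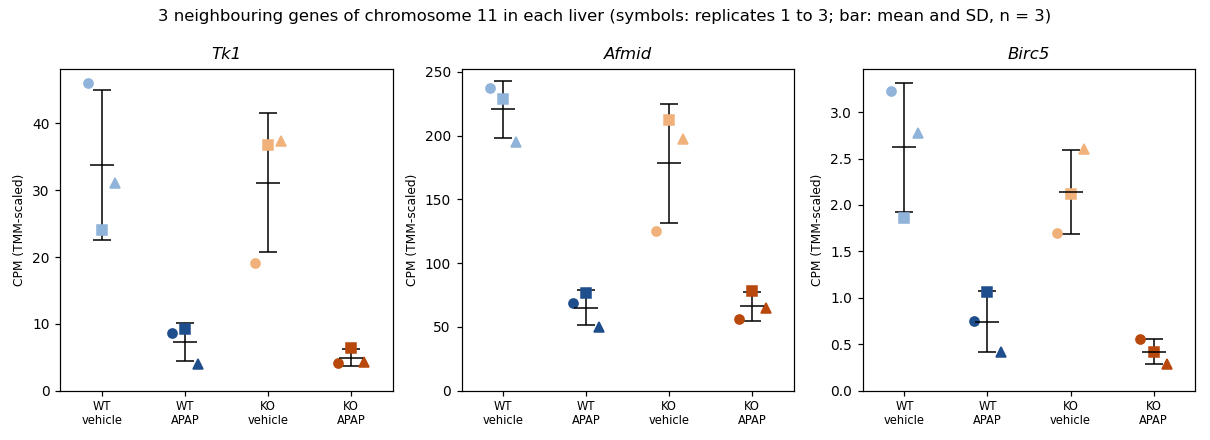
CPM after TMM scaling (vertical axes, linear) of *Tk1*, of *Afmid*, which overlaps its start, and of *Birc5*, the next of these genes along chromosome 11, in the 12 livers by group. Symbols are livers and bars the mean and SD of 3. In all 3 genes every APAP liver lies below every vehicle liver of the same label.

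The helicase subunits encoded by *Mcm2* and *Mcm5* are loaded on origins in G1 and unwind DNA in S phase. *Mcm5* was counted 27, 25 and 33 times in WT vehicle livers and 89, 84 and 67 times in WT APAP livers, and 82, 37 and 29 times in KO vehicle livers and 47, 55 and 75 times in KO APAP livers. The WT groups did not overlap, whereas KO vehicle replicate 1 was above all APAP livers of its label. The log2FC of *Mcm5* was 1.23 in WT mice (SE 0.37, adjusted p = 0.14), 0.02 under the KO label (SE 0.36, adjusted p = 0.979) and 0.61 over both labels (SE 0.30, adjusted p = 0.158). Without KO vehicle replicate 1 the last of these passed, at 0.87 (adjusted p = 0.0277). *Mcm2* was counted 57 to 61 times in WT vehicle livers, 68 to 127 times in WT APAP livers, 54 to 146 times in KO vehicle livers and 102 to 128 times in KO APAP livers. Its log2FC of 0.35 in WT mice, 0.12 under the KO label and 0.22 over both labels did not pass (adjusted p = 0.564, 0.828 and 0.456, edgeR).

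Of the genes of G2 and mitosis, *Mki67*, whose protein Ki-67 coats mitotic chromosomes and marks cycling cells, was counted 13, 15 and 14 times in WT vehicle livers and 32, 107 and 26 times in WT APAP livers. In KO livers it was counted 138, 54 and 40 times with vehicle and 36, 29 and 36 times with APAP. In counts and in CPM the APAP livers were thus all above the vehicle livers in WT mice and all below them under the KO label. On the TPM scale the KO groups overlapped, with KO vehicle replicate 3 at 0.115 TPM and KO APAP replicate 1 at 0.123 TPM. The log2FC was 1.57 in WT mice (SE 0.55, adjusted p = 0.186) and -1.40 under the KO label (SE 0.42, adjusted p = 0.0443, edgeR). The KO call was kept only without KO vehicle replicate 3 and was lost in the other 5 fits that left out 1 liver, most of all without KO vehicle replicate 1, where the log2FC was -0.83, and the adjusted p-values in these 5 fits were 0.0672 to 0.151. It was kept in 3 of the 8 other settings. The call was lost with no filter (adjusted p = 0.0513), with all 12 livers in a single fit (0.0766), and by limma on log2(TPM + 1) (log2FC -0.18, adjusted p = 0.129) and on log2(TPM + 0.1) (log2FC -0.79, adjusted p = 0.0857). Over both labels *Mki67* had a log2FC of 0.01 (SE 0.50, adjusted p = 0.993).

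*Cdk1*, the kinase that drives entry into mitosis, was counted 21, 37 and 37 times in WT vehicle livers and 42, 59 and 28 times in WT APAP livers. In KO livers *Cdk1* was counted 46, 73 and 69 times with vehicle and 14, 26 and 28 times with APAP. The KO groups were clearly apart and the WT groups mixed. *Cdk1* fell under the KO label from 1.24 ± 0.408 to 0.353 ± 0.0941 CPM (SD, n = 3, log2FC -1.79, SE 0.39, adjusted p = 0.0143, edgeR). That call was lost without KO vehicle replicate 2 or 3 (adjusted p = 0.0553 and 0.052). In WT mice the log2FC was 0.12 (SE 0.45, adjusted p = 0.914).

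*Top2a*, the topoisomerase that untangles chromosomes in S phase and mitosis, was counted 12, 4 and 16 times in WT vehicle livers and 21, 52 and 19 times in WT APAP livers, and 48, 19 and 17 times in KO vehicle livers and 15, 21 and 16 times in KO APAP livers. On the CPM scale WT replicates of both treatments overlapped, and under the KO label every APAP liver was below every vehicle liver. Its log2FC of 1.17 in WT mice (SE 0.60) and -0.91 under the KO label (SE 0.44) did not pass (adjusted p = 0.361 and 0.172). *Ccnb1*, which encodes cyclin B1, the partner of CDK1, was counted 8, 0 and 0 times in WT vehicle livers, 16, 40 and 10 times in WT APAP livers, 22, 7 and 8 times in KO vehicle livers and 9, 15 and 14 times in KO APAP livers. A count of 0 allows up to 3 counts in that liver. *Ccnb1* was too low for the test in WT mice, and it did not pass under the KO label (log2FC -0.20, SE 0.50, adjusted p = 0.803) or over both labels (1.06, SE 0.74, adjusted p = 0.329).

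In total, 1 of the 9 genes tested in WT mice was called (*Tk1*, lower), against 2.05% of all genes in that comparison (1.62% higher and 0.427% lower). Under the KO label 3 of 10 were called, all lower (*Tk1*, *Cdk1* and *Mki67*), against 22.6% of all genes (13% higher and 9.6% lower). The median log2FC was 0.90 over the 9 genes in WT mice, -0.09 over the 10 under the KO label and 0.42 over both labels, where the medians of all genes tested were 0.03, -0.02 and 0.01. Without regard to the test, the APAP and vehicle livers did not overlap in CPM for 7 of the 10 genes in WT mice (6 higher and 1 lower) and for 6 of 10 under the KO label (2 higher and 4 lower). The same was true of 24.9% of all genes tested in WT mice and of 42.9% under the KO label. With 3 livers against 3, an exact two-sided permutation test of 1 gene cannot give a p-value below 0.1, so these separations were not tested further.

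**Figure D3:**
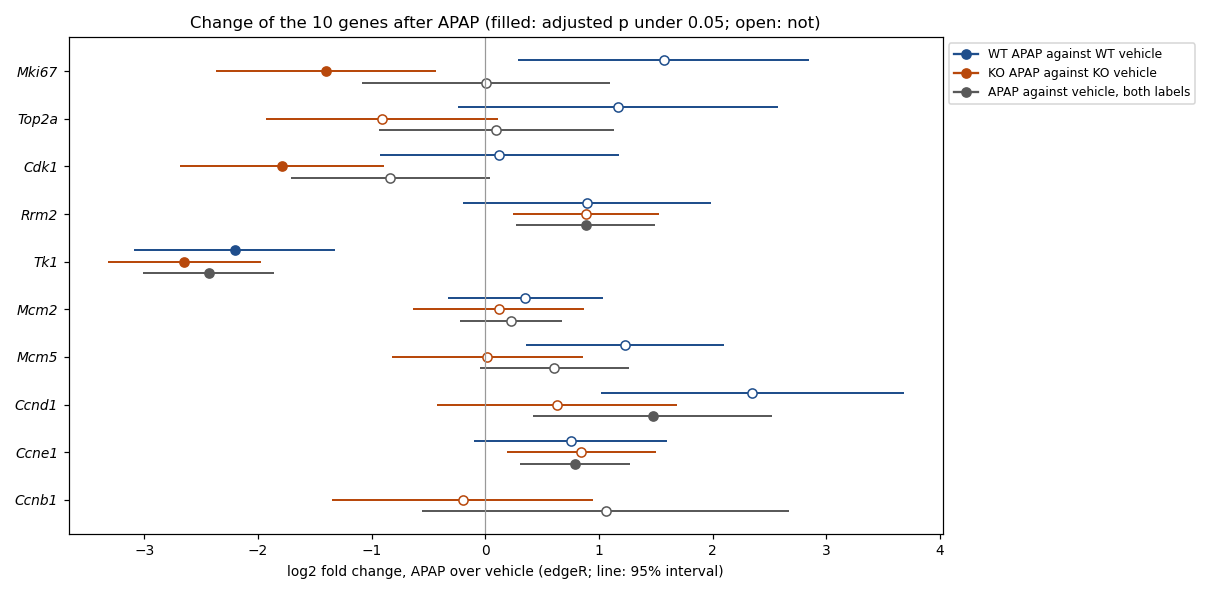
Log2FC of APAP over vehicle (horizontal axis) of the 10 genes within WT mice, within mice labelled KO and over both labels, from edgeR, with 95% intervals as lines. Filled points passed the adjusted threshold, and *Ccnb1* was not tested in WT mice. The WT and KO points of *Mki67* lie at 1.57 and -1.40, on opposite sides of 0, and those of *Tk1* at -2.21 and -2.65.

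To assess whether the response depended on the genotype label, the difference of the APAP effects, KO minus WT, was tested on all 12 livers. With edgeR 0 of the 10 genes passed and 5 had an unadjusted p-value under 0.05, and DESeq2's Wald test called 0 of them. Among all 16509 genes 0 passed (0% called), with 848 at an unadjusted p-value under 0.05 and 9 called by DESeq2. *Mki67* had a difference of -2.97 on the log2 scale (SE 0.70, unadjusted p = 0.00123, adjusted p = 0.872, edgeR). *Cdk1* had one of -1.91 (SE 0.58), *Top2a* of -2.07 (SE 0.76), *Mcm5* of -1.21 (SE 0.50) and *Ccnb1* of -2.86 (SE 1.31), with unadjusted p-values of 0.00673, 0.0185, 0.0326 and 0.0499 and the same adjusted p-value of 0.872. For *Ccnd1* the difference was -1.72 (SE 0.81, unadjusted p = 0.0562). *Tk1*, *Ccne1*, *Rrm2* and *Mcm2* had differences between -0.44 and 0.09, each smaller than its SE. The vehicle groups of the labels also lay apart for *Mki67* and *Ccnd1*. *Mki67* averaged 0.279 ± 0.0351 CPM in the WT vehicle group and 1.42 ± 0.784 CPM in the KO vehicle group (SD, n = 3), which gave a WT over KO log2FC of -2.34 (SE 0.45, unadjusted p = 0.000963, adjusted p = 0.349). *Ccnd1* averaged 5.87 ± 2.50 CPM against 20.1 ± 8.49 CPM in these groups (-1.78, SE 0.37, unadjusted p = 0.00158, adjusted p = 0.397). Neither passed, although both did by DESeq2's Wald test (adjusted p = 0.00227 and 0.000472).

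Between the labels with vehicle 0 of the 9 genes tested were called by edgeR's test (0.0262% of all genes), 3 had an unadjusted p-value under 0.05, namely *Mki67*, *Ccnd1* and *Cdk1* (0.0427), and 2 were called by DESeq2. There was no overlap between the vehicle groups for 3 of the 10 genes, *Mki67*, *Top2a* and *Ccnd1*, which were all lower in WT livers, against 14% of all genes. Between the labels after APAP 0 of 10 were called by edgeR's test (0.0309% of all genes), 0 had an unadjusted p-value under 0.05 and 0 were called by DESeq2. In CPM the APAP groups were apart for 1 gene, *Cdk1*, which was higher in WT livers, against 8.72% of all genes. On the TPM scale WT APAP replicate 3 (0.167 TPM) was below KO APAP replicate 2 (0.173 TPM) for this gene. The log2FC of *Cdk1*, WT over KO, was 0.97 (SE 0.44, adjusted p = 0.958).

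Several of the 10 genes also varied between livers of the same group. KO vehicle replicate 1 held the highest level of *Mki67* (2.32 CPM), *Top2a* (0.806 CPM) and *Mcm2* (2.45 CPM) of all 12 livers, and WT APAP replicate 2 the highest level of *Ccnb1* (0.531 CPM) and *Ccne1* (2.40 CPM). *Mki67* was at 1.42 CPM in WT APAP replicate 2, against 0.635 and 0.413 CPM in the other WT APAP livers. After the group means were removed, the log2 levels of *Mki67*, *Top2a*, *Ccnb1*, *Mcm2* and *Mcm5* were correlated with one another over the 12 livers in all 10 pairs (Pearson r of 0.33 to 0.84, median 0.65). The 45 pairs of all 10 genes spanned -0.70 to 0.84 with a median of 0.11. These genes were set together after their values were seen, they share libraries and low counts, and the coefficients are a description. *Cdk1* did not follow them (r of -0.17 with *Mki67*).

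**Figure D4:**
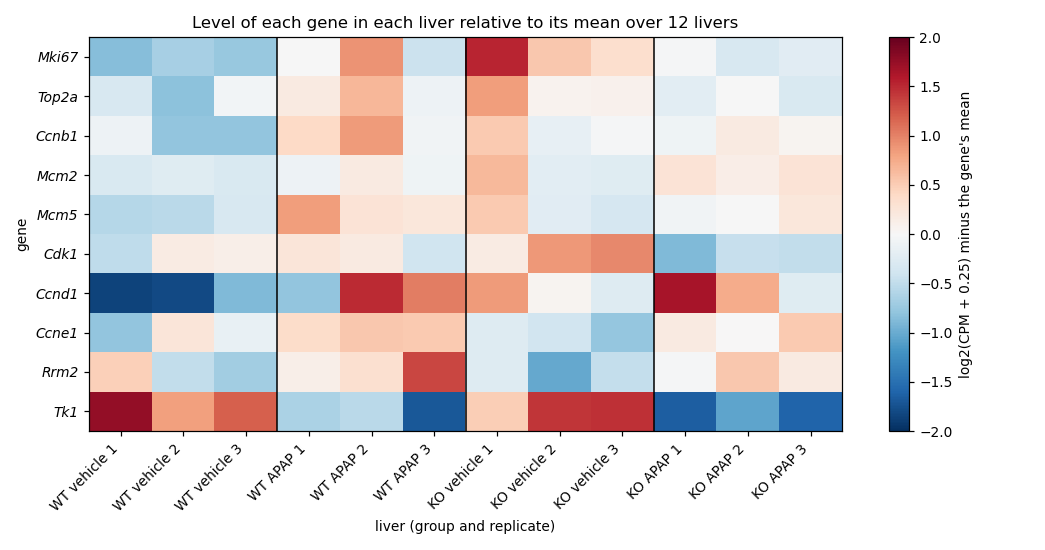
Level of the 10 genes (rows) in the 12 livers (columns, by group and replicate) on the scale log2(CPM + 0.25), minus each gene's mean over the livers, with red above and blue below the mean. KO vehicle replicate 1 and WT APAP replicate 2 are red for *Mki67*, *Top2a*, *Ccnb1*, *Mcm2* and *Mcm5*, and *Tk1* is red in all vehicle livers and blue in all APAP livers.

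The same livers led other genes of mitosis. Of 30 mitosis genes with enough reads, beside the 10 genes, 17 had their highest vehicle value in KO vehicle replicate 1 and 18 had their highest WT APAP value in WT APAP replicate 2, against 17.4% and 35.4% of all genes. With both of these livers left out, a choice made after seeing the data, 5 of the 10 genes were called over both labels in place of 4, the added gene being *Mcm5* (log2FC 0.90, adjusted p = 0.0354), and 0 in the difference between the labels.

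Markers of other cells were measured beside these levels, since lymphocytes and myeloid precursors can cycle. The 9 lymphocyte markers summed to 1.72 to 2.61 CPM in WT vehicle livers, 1.89 to 6.83 CPM in WT APAP livers, 2.37 to 5.57 CPM in KO vehicle livers and 2.09 to 2.43 CPM in KO APAP livers, with *Cd8a* and *Nkg7* at 0 in 2 livers each and the other 7 detected throughout. Their highest sums were in WT APAP replicate 1 (6.83 CPM), KO vehicle replicate 1 (5.57 CPM) and KO vehicle replicate 3 (5.50 CPM), and WT APAP replicate 2 was at 3.80 CPM. None of these 9 markers was called over both labels, against 25.7% of all genes. Under the KO label 1 of the 8 tested was called (12.5%, against 22.6% of all genes), namely *Cd8a*, which was lower and was named after its values were seen. Of the 11 neutrophil and granulocyte precursor markers the precursor genes *Mpo* and *Camp* were at 0 in all 12 livers and *Ltf* in 11, whereas the precursor genes *Elane* and *Ngp* reached 14 and 18 counts and were at 0 in 4 and 6 livers. The list summed to 0.26 to 14.5 CPM in WT vehicle livers, 7.96 to 120 CPM in WT APAP livers, 0.428 to 1.19 CPM in KO vehicle livers and 0.639 to 5.82 CPM in KO APAP livers. WT APAP replicate 1 held the 120 CPM, against 7.96 and 17.1 CPM in replicates 2 and 3 of its group. The 6 Kupffer cell markers summed to 80.2 to 129 CPM, 66.3 to 169 CPM, 107 to 183 CPM and 79.6 to 118 CPM in the same order of groups, with the highest sum in KO vehicle replicate 1. The part of these cells in the levels of *Mki67* and the other genes was not tested.

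To place the 10 genes in the cycle, 85 other cell cycle genes in 4 lists were examined in the same fits. Over both labels 14 were higher and 4 lower of 73 tested, 24.7% of the tested genes, close to the 25.7% of all genes, and their median log2FC was 0.17 against 0.01 for all genes. Within WT mice 1 of 72 was called (1.4%, against 2.05% of all genes), a count that became 0 when WT vehicle replicate 1 or 2 or WT APAP replicate 3 was left out and 2 when WT APAP replicate 1 was. Under the KO label 6 were higher and 7 lower of 72 (18.1%, against 22.6% of all genes), and the 13 calls became 6 without KO vehicle replicate 2 or KO APAP replicate 3.

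Origin licensing and firing genes held the highest count over both labels, with 7 of 13 tested higher and 1 lower (61.5% called, against 25.7% of all genes, median log2FC 0.53). *Cdc45*, which encodes a component of the active helicase, rose from 1.01 ± 0.246 to 3.12 ± 1.36 CPM in WT mice and from 1.09 ± 0.254 to 5.10 ± 0.940 CPM under the KO label (SD, n = 3, log2FC over both labels 1.93, SE 0.26, adjusted p = 0.000236, edgeR). *Orc1*, the largest subunit of the origin recognition complex, had 6, 0 and 0 counts in WT vehicle livers, 0 in each KO vehicle liver and 8 to 37 in the APAP livers, and passed over both labels (adjusted p = 0.00484). *Mcm7*, a helicase subunit like *Mcm2* and *Mcm5*, rose by less (log2FC 0.53, SE 0.11, adjusted p = 0.00496). The other 4 that were higher, named after their values were seen, were *Mcm3*, *Mcm6*, *Cdc6* and *Dbf4*, with log2FC of 0.58 to 1.33. *Mcm10*, which is needed to start replication, was lower (log2FC -0.84, SE 0.23, adjusted p = 0.0177). *Cdc45*, *Orc1* and *Mcm7* each overlap a gene on the other strand, over 237 bases (*Ufd1*), 3632 bases (*Prpf38a*) and 91 bases (*Ap4m1*). Reads from the shared bases cannot be assigned in the deposited counts. *Ufd1* was called higher too, with a log2FC of 0.39. Among the genes named below, *Cdk6*, *Cdkn2b*, *Il6ra*, *Ereg*, *Hgf*, *Egf* and *Hbegf* overlap noncoding genes, and the part of these overlaps in the counts was not tested.

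Of the 18 genes of the replication fork and of nucleotide supply, 3 were higher and 1 was lower over both labels (22.2% called, against 25.7% of all genes, median log2FC -0.06). *Slbp*, which binds the histone messages of S phase, had a log2FC of 0.78 (adjusted p = 0.00229), *Pcna*, the sliding clamp of the DNA polymerases, one of 0.75 (adjusted p = 0.00294) and *Tipin*, a fork protection factor, one of 0.62 (adjusted p = 0.0217).

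Of 15 other G1 and S phase regulators, 2 were higher and 1 lower over both labels (20% called, against 25.7% of all genes, median log2FC 0.25). *Myc*, an immediate early gene of liver regeneration, had the largest change, from 119 to 708 counts in the vehicle livers to 3611 to 6048 in the APAP livers, with a log2FC of 3.55 in WT mice (SE 0.50, adjusted p = 0.0179) and 3.52 under the KO label (SE 0.51, adjusted p = 0.00333). *E2f3*, an activating E2F factor, was slightly higher (0.53, adjusted p = 0.0167) and *Cdk6*, a partner of cyclin D, slightly lower (-0.55, adjusted p = 0.0116) over both labels.

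Of 27 mitosis genes tested over both labels, 2 were higher and 1 lower (11.1% called, against 25.7% of all genes, median log2FC 0.08). *Nusap1* and *Prc1*, both spindle proteins, were counted 2 to 18 and 0 to 12 times in the vehicle livers and 18 to 66 and 13 to 41 times in the APAP livers (log2FC 1.94 and 2.26, adjusted p = 0.00405 and 0.00904). *Prc1* overlaps *Rccd1* over 21669 bases and *Nusap1* overlaps *Oip5* over 208, and both counts are uncertain. *Birc5* was the gene that fell. Under the KO label 1 of 27 was higher and 4 were lower, and apart from *Birc5* the lower genes were *Ube2c*, *Cenpa* and *Kif23*, named after their values were seen (log2FC -1.35, -0.96 and -1.62). These 5 calls are 18.5% of the mitosis genes tested, against 22.6% of all genes. In WT mice 0 of 26 mitosis genes were called by edgeR's test and 4 by DESeq2's Wald test. In edgeR the unadjusted p-value was under 0.05 for 6 of them and for 18% of all genes. The median log2FC was 0.35 in WT mice and -0.13 under the KO label, against 0.03 and -0.02 for all genes. The difference of these effects was called for 0 of 30 mitosis genes by edgeR and 0 by DESeq2, with 4 at an unadjusted p-value under 0.05 in edgeR, where 5.14% of all genes were.

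**Figure D5:**
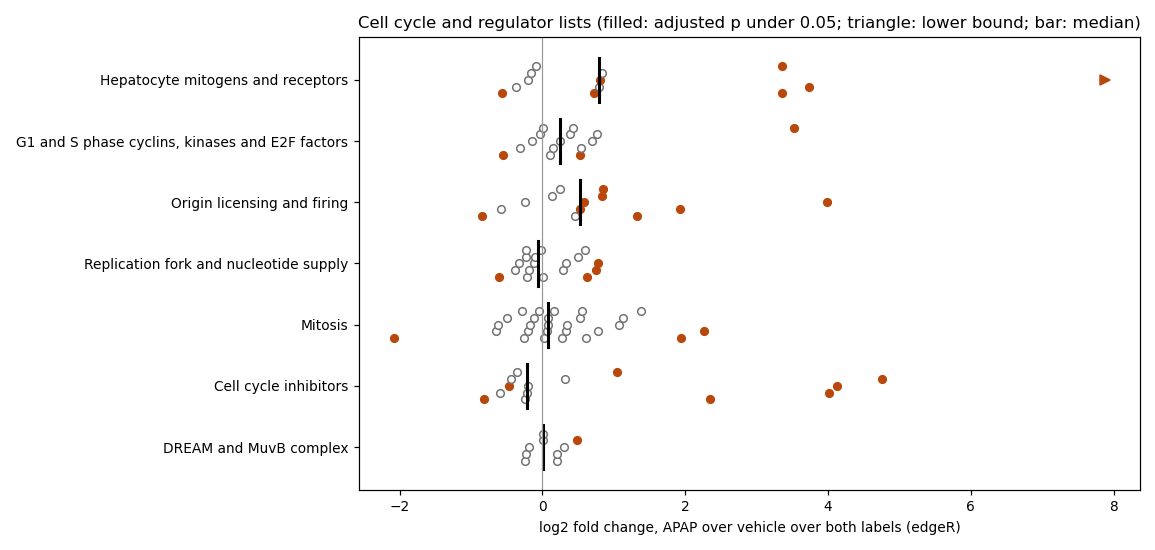
Log2FC of APAP over vehicle over both labels (horizontal axis, edgeR) of the genes in 7 lists (rows). Each point is a gene, filled where it passed the adjusted threshold, the triangle is the lower bound of *Areg*, and black bars are list medians. Filled points are spread to the right among mitogens (6 of 13 higher) and inhibitors (5 of 14 higher), against 14% of all genes called higher, while the mitosis and fork genes centre near 0.

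Larger changes were found among some genes upstream of the cycle. Of 13 tested mitogens of hepatocytes and their receptors 6 were higher and 1 lower over both labels (53.8% called, against 25.7% of all genes, median log2FC 0.79). *Areg*, which encodes the EGF receptor ligand amphiregulin, had 0 counts in all 6 vehicle livers and 112 to 176 in the APAP livers, at least 234-fold higher against a floor of 3 counts over the 6 vehicle livers (adjusted p = 8.88e-06). The related ligands *Btc* and *Ereg* had log2FC of 3.36 (SE 0.33) and 3.73 (SE 0.55). *Il6ra*, the receptor of IL-6, was lower (-0.56, adjusted p = 0.0466). The other 3 that were higher, named after their values were seen, were *Hbegf*, *Hgf* and *Egf*.

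Inhibitors of the cycle were also among the genes that rose, with 5 of 14 tested higher and 2 lower over both labels. These are 50% called, against 25.7% of all genes, and the median log2FC of the list was -0.21. *Cdkn1a*, which encodes the CDK inhibitor p21, was counted 164 to 1388 times in the vehicle livers and 4234 to 13735 times in the APAP livers, a log2FC of 4.01 (SE 0.53, adjusted p = 0.000212). *Cdkn2b*, which encodes the CDK4 and CDK6 inhibitor p15, had 0 to 5 counts with vehicle and 34 to 73 with APAP (adjusted p = 0.000327). *Btg1*, an antiproliferative factor, had a log2FC of 2.35 (SE 0.21), and *Btg2* and *Ccng2*, named after their values were seen, were the other 2. *Rbl2*, which encodes the pocket protein p130, and *Ccng1* were lower (-0.82 and -0.47), and *Rbl2* overlaps *Aktip* on the other strand over 12064 bases. Of the 9 DREAM and MuvB genes 1 was higher (11.1% called, against 25.7% of all genes), *E2f5* (0.48, SE 0.12, adjusted p = 0.0102).

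The genes whose levels followed 4 of the 10 most closely over the 12 livers were sought among 16509 genes, as a description of likeness. *Ccnd1* was followed by *Nsf*, *Egln3* and *Ttf2* (Pearson r of 0.937, 0.896 and 0.892), and *Rrm2* by *Gm21992*, *Foxo3* and *Peli1* (0.887, 0.875 and 0.847). *Mcm5* was followed by *Fgl2*, *AI662270* and *Cd9* (0.909, 0.901 and 0.897). *Top2a* was followed by *Msh3*, *Klrk1* and *Traf3ip3* (0.919, 0.878 and 0.874), of which *Klrk1*, a receptor of natural killer and T cells, had 0 to 55 counts per liver. None of these nearest genes was another of the 10, although *Mki67* correlated with *Top2a* at 0.85. By rank (Spearman), *Top2a* correlated with *Mki67* at 0.82, with *Klrk1* at 0.664 and with *Traf3ip3* at 0.601.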

How the data were processed

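RNA-seq of 12 mouse livers was used, with 3 per group of label and treatment, assigned by each sample's own label. Libraries were made from poly-A RNA with a stranded kit, and 100-base paired reads were sequenced. The submitters' processing notes name FastQC 0.11.7, Trimmomatic 0.38, HISAT2 2.1.0, Bowtie2 2.3.4.1 and StringTie 2.1.3b with the mm10 genome, the build of GRCm38. The authors deposited read counts per gene without normalization, which were tested here. The FPKM deposited by the authors, scaled by length and depth, were not used, and the TPM deposited by the authors served for levels between genes and for alternatives.

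Genes with low counts were removed with filterByExpr, counts were TMM-scaled and tested with edgeR 4.0.16's quasi-likelihood test in R 4.3.3 with Benjamini-Hochberg adjustment over all genes tested, at a threshold of 0.05. Each 2-group comparison used its 6 livers, and the comparison over both labels and the difference between labels used all 12. CPM are TMM-scaled, and correlations used log2(CPM + 0.25). Standard errors follow from the log2 fold change and the test statistic. The p-values from edgeR weigh each change against the spread between livers within groups, which the test moderates with information from all genes tested. Intervals and floors cover counting error or this spread only. Overlaps and promoters came from the RefSeq table, in which 40686 genes matched.

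The members and the lists were chosen with earlier results of these data known. Beside the 10 genes and *Gna12*, the rule named up to 3 genes per direction of each cell cycle and regulator list that passed over both labels, by smallest p-value, and the 3 genes most correlated with *Ccnd1*, *Mcm5*, *Rrm2* and *Top2a*. A gene that the rule also named is not reported here, although the list counts include it. Alternatives were DESeq2 1.42.0 (size factors or Wald test), no filter, at least 10 counts in every liver, limma 3.58.1 on quantile-normalized TPM (log2 after adding 1 or 0.1), a single fit of all 12 livers, a block for the replicate number, and each liver left out. The fits were tested on simulated data.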

Additional observations from a re-analysis of the deposited data

Results flagged for a closer look

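*Mki67* was singled out because the APAP effect pointed in opposite directions under the 2 labels. In CPM every WT APAP liver was above the WT vehicle livers and every KO APAP liver below the KO vehicle livers, while on the TPM scale the KO groups overlapped. The difference of the effects, KO minus WT, was -2.97 on the log2 scale and did not pass over all genes in edgeR's interaction test (adjusted p = 0.872). With 1 liver left out at a time it ranged from -3.29 to -2.32, and it kept this direction without KO vehicle replicate 1, the liver with the highest *Mki67* level. The WT effect alone did not pass (adjusted p = 0.186, edgeR), and the KO call was kept in 1 of 6 fits that left out 1 liver. The vehicle groups averaged 0.279 CPM in WT and 1.42 CPM in KO livers. The APAP groups averaged 0.823 and 0.535 CPM in the same order and overlapped.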

How the results depend on the processing

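Under the settings tried, 0 results of the 10 genes reversed a call. DESeq2's Wald test called 2 of the 10 genes in WT mice, 5 under the KO label and 2 between the vehicle groups, and 10 genes of the cell cycle lists in WT mice, in place of 1, 3, 0 and 1. A single fit of all 12 livers called 2 of the 10 genes in WT mice, and 8 genes of the cell cycle lists in WT mice and 7 under the KO label, in place of 1 and 13. By limma on log2(TPM + 0.1), 2 genes of the cell cycle lists were called in WT mice. The replicate numbers did not pair the livers, since same-numbered livers of different groups deviated from their group means with correlations of -0.336 to 0.154. The replicate block gave 2 calls among the 10 genes over both labels and 0 in WT mice, in place of 4 and 1, and 0 cell cycle list genes in WT mice. The calls lost with the block were *Ccnd1* and *Rrm2* over both labels (adjusted p = 0.0733 and 0.0525), *Tk1* in WT mice (0.0843) and *Mki67* under the KO label (0.0526). In the fits that each left out 1 liver, the calls among the 10 genes ranged from 0 to 1 in WT mice, 1 to 3 under the KO label and 2 to 5 over both labels, and those of the cell cycle lists from 0 to 2 in WT mice and 6 to 12 under the KO label. In such a fit with 2 livers in 1 group the spread is shared by both groups. The cause of these shifts was not tested. Among all genes in WT mice 255 were higher and 67 lower, which became 877 and 536 by DESeq2, 968 and 555 with all 12 livers in a single fit and 61 and 1 with the block, and 41 to 442 in all with 1 liver left out. The G2 and mitosis genes had at most 138 counts in a liver, which limits the precision of their fold changes.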
